A study of Mus musculus with 8 samples.

Results

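The genes described here encode the MLL and SET1 complexes, which place methyl groups on lysine 4 of histone H3. The 10 members were taken by symbol from the deposited expression table, 10 of 17589 genes and 47 of 45550 transcript entries. The table uses older symbols for the genes Kmt2d (Mll2), Kmt2c (Mll3) and Kmt2b (Wbp7), and its gene identifiers settle which gene is meant, since both Kmt2d and Kmt2b have been called Mll2 in mouse. RNA came from spermatogonia, the germ cells that feed spermatogenesis, sorted as Oct4-GFP positive cells from testes at 6 days after birth. All mice were C57BL/6 and carried the GOF/deltaPE-Oct4/GFP reporter, a transgene in which part of the Oct4 regulatory sequence drives GFP. There were 4 libraries labelled Control and 4 labelled KDM1A KO. The protocol calls the knockout conditional, and the Cre driver, the allele and the genotype of the controls beyond that label were not given in the sources used here. The comparison asks how loss of KDM1A, the demethylase that removes methyl groups from the same lysine, goes with RNA levels of the enzymes that add them.

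In mammals this lysine is methylated by large complexes that share a core of WDR5, RBBP5, ASH2L and DPY30 and differ in the catalytic subunit. KMT2C and KMT2D are known for monomethylation at enhancers, KMT2A and KMT2B with menin act at promoters, and SETD1A and SETD1B with CXXC1 carry out much of the trimethylation at active promoters. KMT2B is known to be needed in the mouse germ line.

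Kdm1a itself stood at 53.7, 54.0, 92.0 and 48.1 FPKM in controls 1 to 4 and at 14.2, 14.1, 17.3 and 14.9 FPKM in knockouts 1 to 4, so every knockout library was below every control. FPKM are fragments per kilobase of transcript scaled by library size, a level per length that can be compared between genes. Depth inferred from the steps between low values was 60750000 to 67000000 fragments among controls and 45500000 to 63000000 among knockouts. Knockout replicate 2 stood apart, with 1642 transcript entries listed at 0 against 506 to 734 in the other libraries. The germ cell markers Ddx4, Dazl, Sall4, Pou5f1, Zbtb16, Gfra1, Kit and Dppa3 summed to 834 to 915 FPKM among controls and 787 to 831 among knockouts. In such bulk samples, fewer cells of a type and less RNA per cell cannot be told apart.

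As deposited, 4 of the 5 catalytic subunits among the 10 members fell and none of the 3 core subunits among them did. Kmt2a and Dpy30, an enzyme and a core subunit outside the 10, were not called. Wdr5 was called lower after median-ratio scaling, with equal protein-coding totals and with the length trend removed. The enzyme genes that fell also have longer main entries than the core genes, and the part of length was not tested. Of the 10 genes, Kmt2d, Kmt2c, Kmt2b, Setd1a and Cxxc1 fell, Ash2l and Men1 rose, and Setd1b, Rbbp5 and Wdr5 were not called, on deposited values; after scaling every library to the same FPKM total the signs of Kmt2c, Kmt2b, Setd1a, Setd1b, Rbbp5, Wdr5 and Cxxc1 turned positive. A gene was called at an adjusted p under 0.05 in limma, fitted over every gene whose mean reached 1 FPKM. Of the 13483 genes tested, 12.1% fell and 25.3% rose, 37.5% in all. The median change of the 10 genes was -0.24, as the difference of log2(FPKM + 1) between knockout and control, against 0.09 over all tested genes. In 7 of the 10 the knockout and control libraries did not overlap, against 38.6% of all tested genes. All 10 passed the filter on low values, Setd1b only just.

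**Figure D1:**
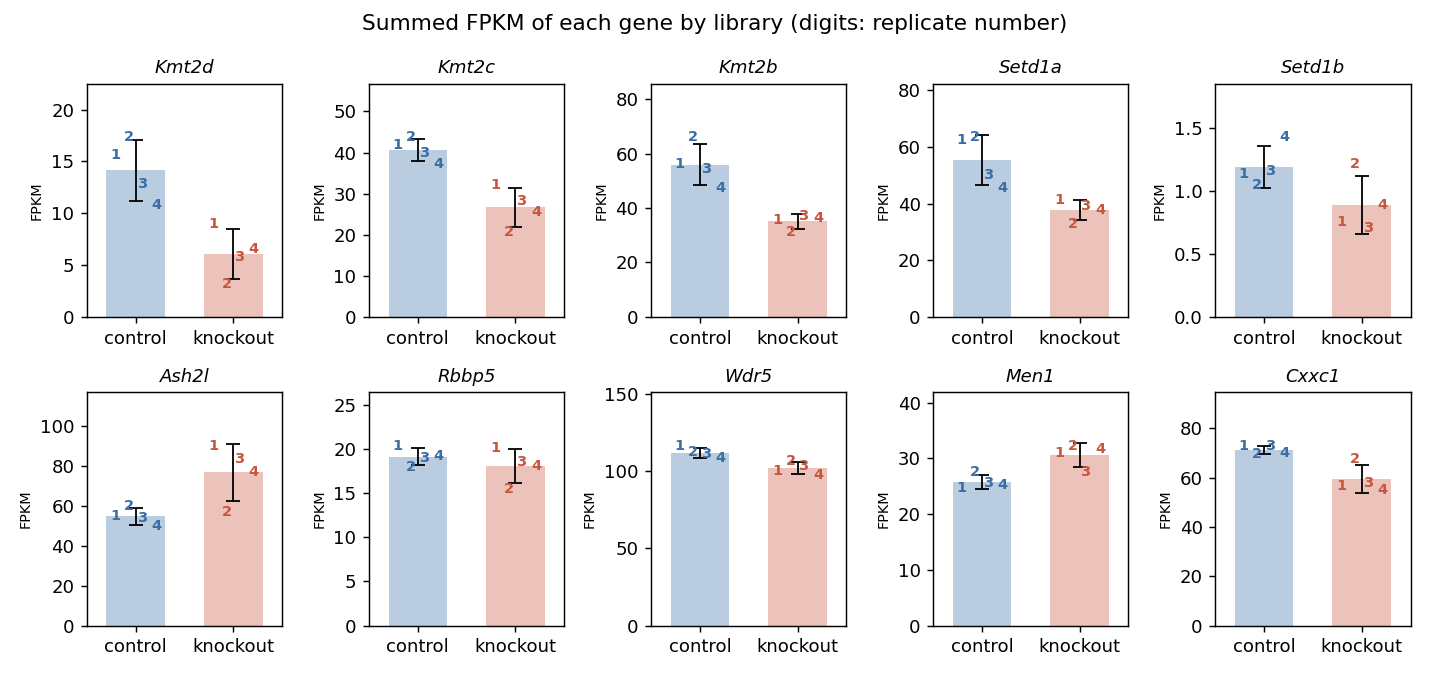
Summed FPKM of each of the 10 genes (vertical axes from 0, one panel per gene), with a digit for each library giving its replicate number, coloured bars for group means and error bars for SD (controls blue, knockouts red, n = 4). In Kmt2d, Kmt2c, Kmt2b, Setd1a, Wdr5, Men1 and Cxxc1 the groups do not overlap as deposited, and in Ash2l knockout replicate 2 lies at 57.2 among the controls.

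Because KMT2B and CXXC1 bind unmethylated CpG through their CXXC domains, the CG pairs just upstream of the genes' own start sites are shown for 3 genes that changed, Kmt2d and Kmt2c (lower) and Men1 (higher). Each sequence is the 150 bases before the start site, 5′ to 3′ on the strand of the gene, from RefSeq on GRCm38.p6, with every CG in capitals (CG reads the same on both strands):
Kmt2d (chr15:98871206-98871355, minus strand): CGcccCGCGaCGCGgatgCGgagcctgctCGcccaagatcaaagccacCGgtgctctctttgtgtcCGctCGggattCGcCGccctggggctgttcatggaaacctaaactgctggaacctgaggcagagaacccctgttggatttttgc
Kmt2c (chr5:25498784-25498933, minus strand): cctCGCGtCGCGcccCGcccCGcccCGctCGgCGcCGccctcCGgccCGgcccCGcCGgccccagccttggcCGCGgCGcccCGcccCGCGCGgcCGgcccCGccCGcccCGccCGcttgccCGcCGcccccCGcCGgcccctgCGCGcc
Men1 (chr19:6334829-6334978, plus strand): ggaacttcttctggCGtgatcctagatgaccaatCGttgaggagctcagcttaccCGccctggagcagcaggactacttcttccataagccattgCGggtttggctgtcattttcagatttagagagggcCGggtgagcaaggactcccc
The Kmt2c window held 32 CG, as many as only 0.107% of the 32843 promoter windows of this length, whose median was 4. Kmt2d had 12 (23.1% of windows held as many or more) and Men1 had 5 (45.7%). Promoters were found for 6 of the 10 genes: Setd1a had 19 CG, Wdr5 had 11 and Rbbp5 had 7, while Kmt2b, Setd1b, Ash2l and Cxxc1 were unmatched. CG number thus differed widely among these genes, also between Kmt2c and Kmt2d, which both fell. This is a description of these letters and not of binding.

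Kmt2d, which encodes the enhancer methyltransferase also called MLL4, showed the largest fitted change of the 10 genes. It was at 15.7, 17.3, 12.8 and 10.8 FPKM in controls 1 to 4 and at 8.99, 3.14, 5.76 and 6.56 FPKM in knockouts 1 to 4. Every knockout library lay below every control, with knockout replicate 2 lowest. The means were 14.1 ± 2.91 and 6.11 ± 2.41 (SD, n = 4 each), a 2.31-fold drop (log2 change -1.14, SE 0.25, adjusted p = 0.00671). In mm10 it (ENSMUSG00000048154) occupies chromosome 15 from 98831669 to 98871204, minus strand. Nearly all of its signal sat on the full-length protein-coding entry Kmt2d-202, of 19805 bases and 55 exons, at 13.8 ± 2.87 and 6.10 ± 2.42 FPKM (log2 change -1.11, adjusted p = 0.0216 in the fit of entries). The gene kept its call without any single library (adjusted p from 0.00283 to 0.0236). After a trend with transcript length was removed from each library, its change was -0.75, smaller by over 1.5 times, with an adjusted p of 0.000258.

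Kmt2c, its close relative in the same class of enhancer complex, stood at 41.8, 43.7, 39.8 and 37.3 FPKM in the controls and at 32.2, 20.6, 28.1 and 25.6 FPKM in the knockouts. The groups did not overlap, and the means of 40.6 ± 2.72 and 26.6 ± 4.84 (SD, n = 4) were 1.53-fold apart (log2 change -0.61, SE 0.13, adjusted p = 0.00499). The gene (ENSMUSG00000038056) spans chromosome 5 from 25271798 to 25498783 on the minus strand. Gm18343, Gm42585 and Hspe1-ps3 lie on the opposite strand within it and Gm20432 on the same strand, and whether counting used strand was not given in the sources used here.

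The FPKM of Kmt2c were divided among 3 main protein-coding entries that differed in their values. The full-length Kmt2c-201, of 14967 bases and 59 exons, was at 16.5, 17.3, 10.6 and 8.34 FPKM in the controls and at 12.6, 0.931, 5.51 and 6.35 FPKM in the knockouts. These values overlapped and were not called (log2 change -1.20, SE 0.53, adjusted p = 0.158). Kmt2c-202, of 6486 bases, starts 190205 bases inside the gene from its 5′ end and covers the 3′ exons. It was at 10.2, 10.8, 11.6 and 9.96 FPKM in the controls and at 6.93, 2.03, 7.49 and 6.59 in the knockouts, without overlap but not called (log2 change -0.89, adjusted p = 0.0780). Kmt2c-208, of 6443 bases, starts 198680 bases inside the gene, and 69.3% of its exonic bases are shared with Kmt2c-201. It was at 12.8, 12.8, 16.3 and 18.2 FPKM in the controls and at 10.8, 17.6, 14.6 and 12.2 in the knockouts (log2 change -0.12, adjusted p = 0.651), and the groups overlapped. Since Cufflinks divides fragments among entries that share exons, the split between these entries is less certain than their sum.

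Kmt2b, the methyltransferase whose CXXC domain binds unmethylated CpG, was at 56.0, 66.0, 54.3 and 47.6 FPKM in the controls and at 35.7, 31.2, 37.3 and 36.3 FPKM in the knockouts. All 4 knockouts lay in a narrow band below the lowest control. The means were 56.0 ± 7.60 and 35.1 ± 2.71 (SD, n = 4), 1.59-fold lower (log2 change -0.65, SE 0.11), with the smallest adjusted p among the 10 genes, 0.00138. It (ENSMUSG00000006307) occupies chromosome 7 from 30568858 to 30588726, minus strand. Its protein-coding entries alone went from 42.7 ± 6.03 to 26.1 ± 2.76 FPKM (log2 change -0.68, adjusted p = 0.00143 in the fit of protein-coding sums). The full-length Kmt2b-201, of 8469 bases and 37 exons, was at 26.4, 28.2, 19.0 and 14.4 FPKM in the controls and at 16.3, 5.28, 10.9 and 11.3 in the knockouts. Those ranges overlapped (log2 change -0.99, adjusted p = 0.0640). Kmt2b-206, of 6345 bases, starts 3386 bases inside the gene from its 5′ end and shares 99.95% of its bases with Kmt2b-201. It was at 16.4, 19.5, 20.97 and 19.6 FPKM and at 10.4, 16.5, 16.6 and 14.7 FPKM (log2 change -0.39, adjusted p = 0.115), so neither main entry was called where their sum was. The minor entry Kmt2b-202, of 8454 bases, fell from 1.57 ± 0.360 to 0.610 ± 0.331 FPKM (adjusted p = 0.0294).

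Setd1a, a SET1-type methyltransferase, was at 62.5, 63.4, 50.3 and 45.5 FPKM in the controls and at 41.4, 32.9, 39.2 and 37.8 FPKM in the knockouts. No knockout reached the lowest control. The means of 55.4 ± 8.93 and 37.8 ± 3.57 (SD, n = 4) gave a 1.46-fold lower level (log2 change -0.53, SE 0.12, adjusted p = 0.00875). Located on chromosome 7 from 127776670 to 127800122, plus strand, the gene (ENSMUSG00000042308) overlaps 9430064I24Rik on the opposite strand and Gm49388 on the same strand. Its main entry Setd1a-202, of 5927 bases, held 86.8% of the control sum and fell (47.9 ± 6.25 to 34.3 ± 2.48 FPKM, log2 change -0.46, adjusted p = 0.0201). The longer Setd1a-201 also fell, from 4.70 ± 0.945 to 2.52 ± 0.683 FPKM (adjusted p = 0.0335). The other SET1-type gene, Setd1b (ENSMUSG00000038384, chromosome 5 from 123142193 to 123168629, plus strand), was scarce. Its sums were 1.13, 1.05, 1.16 and 1.43 FPKM in the controls and 0.750, 1.22, 0.708 and 0.892 in the knockouts, with overlap (log2 change -0.22, 95% interval -0.47 to 0.04, adjusted p = 0.158). Without knockout replicate 2 it passed the threshold (log2 change -0.30, adjusted p = 0.0347). Most of that sum came from retained-intron entries, while the coding entry Setd1b-204, of 8857 bases, was at 0.133 ± 0.0734 and 0.0330 ± 0.0660 FPKM.

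None of the core subunits was called lower as deposited. Ash2l, whose product joins RBBP5 in activating the catalytic SET domain, was at 55.2, 59.97, 54.1 and 50.0 FPKM in the controls and at 90.1, 57.2, 83.6 and 77.2 FPKM in the knockouts. Knockout replicates 1, 3 and 4 exceeded every control, and knockout replicate 2 lay within the control range. The means were 54.8 ± 4.10 and 77.0 ± 14.2 (SD, n = 4), 1.41-fold higher (log2 change 0.47, SE 0.14, adjusted p = 0.0233). The call was lost without any one of control replicates 1, 3 and 4 or knockout replicates 1, 3 and 4 (adjusted p from 0.0518 to 0.0686), and without knockout replicate 2 the change was 0.60 (adjusted p = 0.000529). In the division of fragments among entries, less certain than the gene's sum, the rise sat on the protein-coding entry Ash2l-204, of 2337 bases. That entry was at 40.5, 42.8, 40.9 and 37.0 FPKM in the controls and at 76.6, 44.6, 67.8 and 64.0 in the knockouts. There the groups did not overlap (log2 change 0.61, adjusted p = 0.0275), and the entry took 73.5% ± 1.71 of the gene's sum in the controls and 81.7% ± 2.99 in the knockouts. It (ENSMUSG00000031575) occupies chromosome 8 from 25815996 to 25847694, minus strand.

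Rbbp5 (ENSMUSG00000026439, chromosome 1 from 132477365 to 132505659, plus strand) has a single entry in the table. It was at 20.3, 18.01, 19.0 and 19.2 FPKM in the controls and at 20.05, 15.5, 18.5 and 18.1 in the knockouts (log2 change -0.08, 95% interval -0.29 to 0.12, adjusted p = 0.501). The ranges overlapped, and the interval leaves room for a change of either sign. Wdr5 (ENSMUSG00000026917, chromosome 2 from 27515157 to 27536535, plus strand) encodes the propeller protein that docks the core on the enzyme. It was at 116.0, 112.5, 110.9 and 108.1 FPKM in the controls and at 100.2, 106.8, 103.5 and 97.4 FPKM in the knockouts. Every knockout was below every control, yet the difference of 112 ± 3.31 and 102 ± 4.08 (SD, n = 4) was small and was not called (log2 change -0.13, 95% interval -0.29 to 0.02, adjusted p = 0.154). Its main entry Wdr5-201 was at 104.1 ± 1.28 and 97.8 ± 5.44 FPKM (adjusted p = 0.400), while the minor coding entry Wdr5-203 fell from 5.62 ± 2.20 to 2.52 ± 1.01 (log2 change -0.90, adjusted p = 0.0487).

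Of the subunits tied to particular enzymes, menin and CXXC1 moved in opposite directions as deposited. Men1 (ENSMUSG00000024947, chromosome 19 from 6334979 to 6340891, plus strand) encodes menin, the partner of KMT2A and KMT2B. Its FPKM was 24.7, 27.5, 25.6 and 25.1 in the controls and 30.9, 32.2, 27.6 and 31.7 in the knockouts. The lowest knockout barely exceeded the highest control. The means were 25.8 ± 1.24 and 30.6 ± 2.09 (SD, n = 4), 1.19-fold higher (log2 change 0.24, SE 0.08, adjusted p = 0.0356), a call lost without any one of control replicates 1, 3 and 4 or knockout replicates 1 and 4 (adjusted p from 0.0698 to 0.0935). In the division of fragments among entries, which is less certain than the gene's sum, the rise sat on Men1-203. Its level went from 10.8 ± 0.812 to 15.4 ± 2.76 FPKM (log2 change 0.46, adjusted p = 0.0405). Men1-201, which shares 87.8% of its exonic bases with Men1-203, stood at 8.31 ± 0.768 and 7.20 ± 1.34 FPKM (adjusted p = 0.362). The share of Men1-201 in the gene's sum was 32.2% ± 1.97 in the controls and 23.7% ± 5.40 in the knockouts.

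Cxxc1 (ENSMUSG00000024560) encodes the CpG-binding subunit of the SET1 complexes and has a single entry. It was at 72.8, 69.7, 72.7 and 70.2 FPKM in the controls and at 56.8, 67.7, 57.8 and 55.2 FPKM in the knockouts. All knockouts were lower, with knockout replicate 2 nearest to the controls. The means of 71.4 ± 1.64 and 59.4 ± 5.65 (SD, n = 4) gave a 1.20-fold lower level (log2 change -0.27, SE 0.08, adjusted p = 0.0277). The call was lost without any one of control replicates 1, 3 and 4 or knockout replicates 1, 3 and 4 (adjusted p from 0.0516 to 0.0809) and in the fit of entries, which tests more features (adjusted p = 0.0575).

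In the controls the genes ranked from Wdr5 at 112 FPKM and Cxxc1 at 71.4 through Kmt2b, Setd1a and Ash2l to Kmt2c at 40.6, Men1 at 25.8, Rbbp5 at 19.1, Kmt2d at 14.1 and Setd1b at 1.19. The levels of Kmt2b, Setd1a and Ash2l, at 56.0, 55.4 and 54.8, overlapped between libraries, and no other neighbours in this order did. By knockout means Ash2l stood second to Wdr5 and Kmt2c, at 26.6 FPKM, below Men1, at 30.6, but these neighbours overlapped: in knockout replicate 2 Cxxc1, at 67.7 FPKM, was above Ash2l, at 57.2, and in knockout replicates 1 and 3 Kmt2c was above Men1.

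A ratio of genes within a library does not depend on how the library was scaled. A trend with transcript length need not cancel in such a ratio. The most abundant entries of Kmt2d, Kmt2c, Kmt2b and Setd1a have 5927 to 19805 bases, and those of Ash2l, Rbbp5 and Wdr5 have 2337 to 3385. That of the scarce Setd1b has 2375. The part of length in the ratios was not tested. The sum of the 5 methyltransferase members was taken over the sum of Ash2l, Rbbp5 and Wdr5, without Kmt2a and Dpy30. This ratio was 0.924, 1.004, 0.861 and 0.804 in the controls and 0.566, 0.496, 0.540 and 0.556 in the knockouts. The knockouts lay well below the controls, at 0.540 ± 0.0307 against 0.898 ± 0.0861 (SD, n = 4), 1.66-fold lower. The enzyme sum went from 167 ± 21.3 to 107 ± 12.6 FPKM, without overlap, and the core sum from 186 ± 6.61 to 197 ± 13.9 FPKM, with overlap. The ratio of Kmt2d to Ash2l was 0.283, 0.289, 0.237 and 0.215 in the controls and 0.0998, 0.0549, 0.0689 and 0.0849 in the knockouts, 3.32-fold lower. Kmt2b to its partner Men1 went from 2.17 ± 0.216 to 1.15 ± 0.157, also without overlap, whereas Setd1a to Cxxc1 overlapped, at 0.777 ± 0.127 and 0.645 ± 0.108. The ratios were described without a test. Those of Kmt2d to Ash2l, Kmt2b to Men1 and Setd1a to Cxxc1 were not among the ratios set beforehand. Kmt2d and Ash2l are the members with the largest fall and the largest rise, so their ratio is the most extreme choice.

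**Figure D2:**
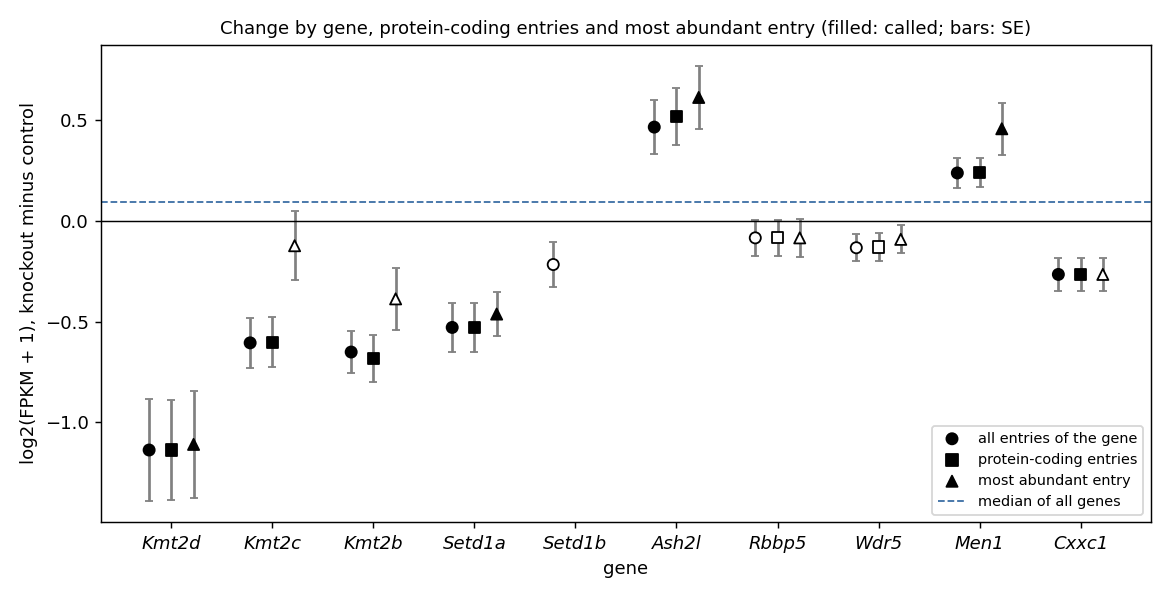
Log2 change, knockout minus control, of each gene for the gene sum, the sum of its protein-coding entries and its most abundant entry (markers filled where called, bars SE, dashed line the median of all genes at 0.09). On deposited values Kmt2d, Kmt2c, Kmt2b, Setd1a and Cxxc1 lie below 0 and Ash2l and Men1 above, for gene and coding sums alike, a pattern that turns for Kmt2c, Kmt2b, Setd1a and Cxxc1 with equal FPKM totals.

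Summing the protein-coding entries alone left the calls as they were for the 9 genes that passed the filter, with 5 lower and 2 higher, against 13.1% and 27.1% of 11504 genes tested this way. Setd1b did not reach that filter. Entry by entry, 28 of the 47 had a mean of at least 1 FPKM. Of these, Kmt2d-202, Kmt2b-202, Setd1a-202, Setd1a-201 and Wdr5-203 fell, Ash2l-204 and Men1-203 rose, and 21 were not called, against 5.93% lower and 12% higher, 18% in all, among 26612 entries. Groups did not overlap in 9 of the 28, against 26% of all entries. Between 0 and 6 entries fell and between 0 and 2 rose when single libraries were left out, so entry calls rested on few libraries: Kmt2d-202 lost its call without control replicate 1, 2 or 3 or knockout replicate 3 (adjusted p from 0.0519 to 0.0662).

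**Figure D3:**
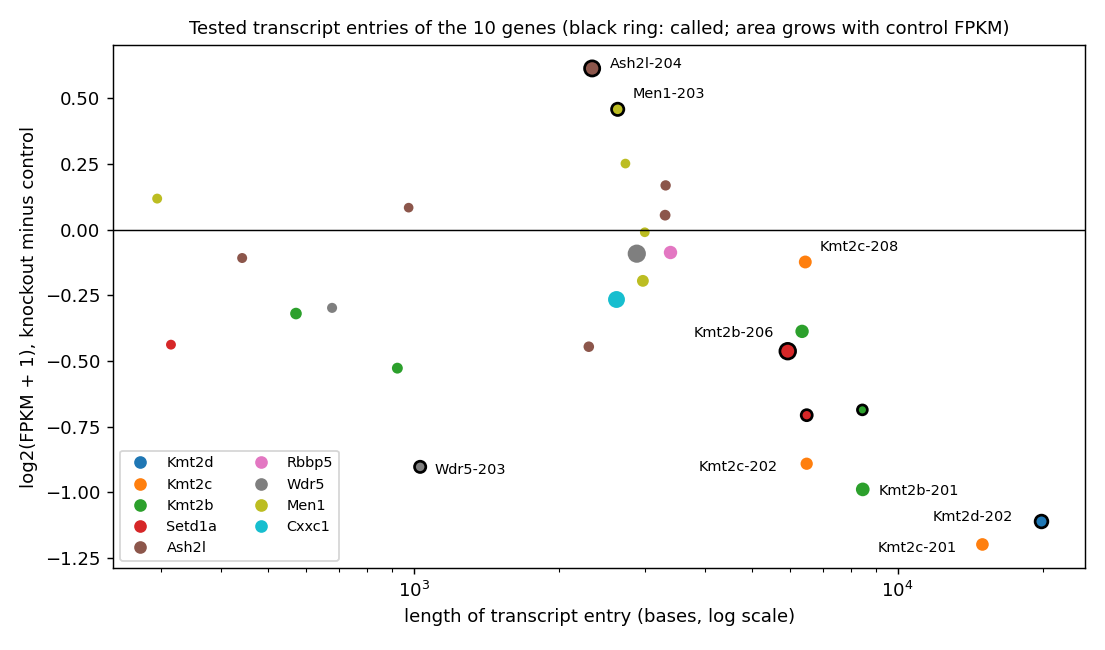
Log2 change, knockout minus control, of the 28 tested entries against entry length in bases (log axis), coloured by gene, with area growing with control FPKM and a black ring where called. All 9 entries of 5000 bases or longer lie below 0, and Ash2l-204 at 2337 bases and Men1-203 at 2639 bases are the called rises.

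Length moved with the direction of change. All 9 tested entries of 5000 bases or longer were lower in the knockouts as deposited, 4 of them called, and these belong to Kmt2d, Kmt2c, Kmt2b and Setd1a. Of all genes whose most abundant entry has that length, 21.1% of 1839 fell and 12.8% rose, against 10.8% and 27.6% of the 11317 shorter genes. The median log2 change was -0.10 in the longer genes and 0.12 in the shorter ones. Of single entries of that length, 11.7% fell and 9.26% rose. Libraries also differed in this respect within groups: the median deviation of longer genes minus that of shorter genes was 0.25, 0.22, 0.02 and -0.03 in controls 1 to 4 and 0.11, -0.48, -0.08 and -0.02 in knockouts 1 to 4. Knockout replicate 2 was lowest by far, and knockout replicate 1 lay above 2 of the controls. Kmt2d, Kmt2c, Kmt2b and Setd1a were below every control in each knockout library. The part of length in these falls was not tested.

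With the length trend removed, an alternative chosen after seeing the data, Kmt2c (log2 change -0.52, adjusted p = 0.000271), Kmt2b (-0.57, 0.000704) and Setd1a (-0.46, 0.00189) stayed lower, and Wdr5 (-0.21, 0.00927) and Setd1b (-0.34, 0.0204) passed the threshold as well. Ash2l (0.34, adjusted p = 0.103) and Men1 (0.14, 0.145) lost their calls. Without knockout replicate 2 the changes were -0.90 for Kmt2d, -0.49 for Kmt2c, -0.60 for Kmt2b and -0.47 for Setd1a, all still called. The split between full-length and shorter entries followed the same libraries: Kmt2c-201 took 39.6%, 39.7%, 26.7% and 22.3% of the gene's sum in the controls and 39.2%, 4.52%, 19.6% and 24.8% in the knockouts, and Kmt2b-201 took 16.9% in knockout replicate 2 against 29.2% to 45.8% in the other knockouts. The part of length in these shares was not tested.

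**Figure D4:**
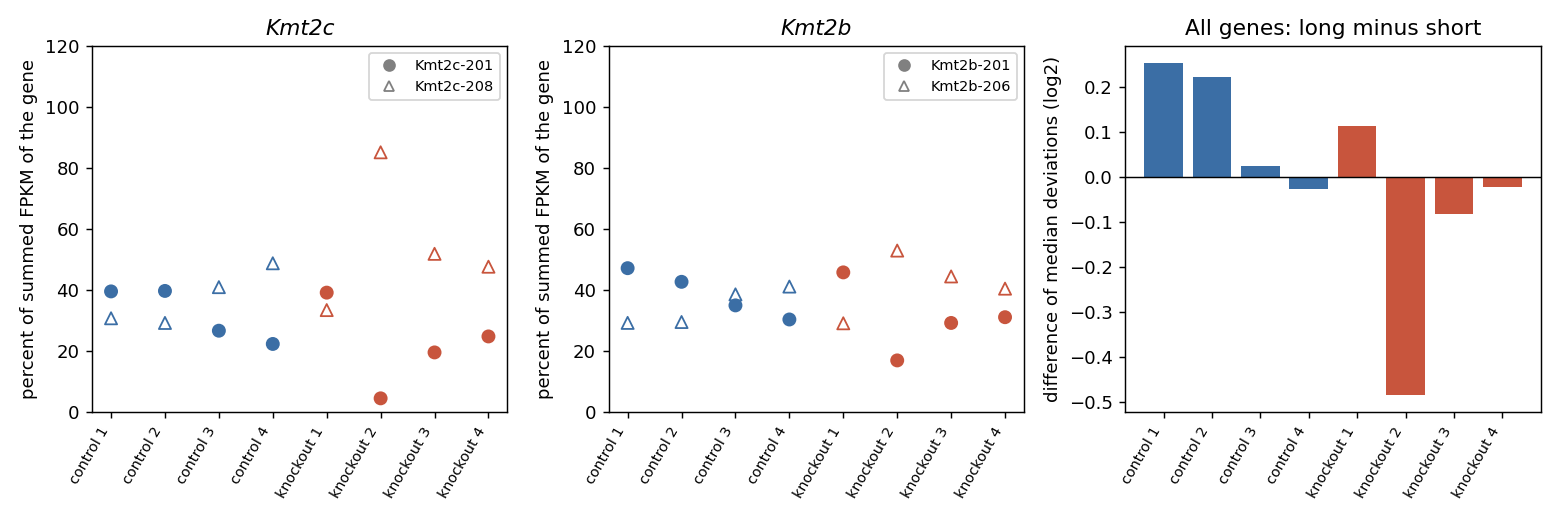
Percent of the gene's summed FPKM held by the full-length (circles) and shorter (triangles) entries of Kmt2c and Kmt2b in each library, and, as bars from 0, the median log2 deviation of genes whose most abundant entry has 5000 bases or more minus that of shorter genes (controls blue, knockouts red). In knockout replicate 2 Kmt2c-201 holds 4.52% and the bar is lowest at -0.48.

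Scaling bears on the size of the changes, on the calls and, with equal FPKM totals, on the sign. Of the summed FPKM, the microRNA gene Mir5105 made up 61.3% to 77.1% among controls and 29.4% to 52.7% among knockouts, so scaling to equal totals moved the median of all genes from 0.09 to 0.74. Under it Kmt2d stayed negative but was no longer called (log2 change -0.49, adjusted p = 0.0782), and the other 9 were positive, from 0.06 in Kmt2b upward. Median-ratio scaling, quantile normalization, removal of small RNAs and equal protein-coding totals kept the calls of Kmt2d, Kmt2c, Kmt2b, Setd1a and Cxxc1, and each ended those of Ash2l and Men1. Some of them added calls: Wdr5 was called lower after median-ratio scaling (adjusted p = 0.0143) and with equal protein-coding totals (0.0444). Setd1b was called lower after quantile normalization (adjusted p = 0.0351), with small RNAs removed (0.0395) and with equal protein-coding totals (0.0487). Taken relative to the median of all genes, no member changed direction over the 14 settings that used all 8 libraries (13 for Setd1b). Subtracting that median largely cancels a scaling of whole libraries, and filters and limma options leave each gene's change as it was. Agreement among such settings was therefore largely fixed in advance. Relative to that median, Kmt2d lay between -1.37 and -0.73 and Kmt2c between -0.73 and -0.51. Kmt2b lay between -0.77 and -0.56 and Setd1a between -0.64 and -0.44. Ash2l lay between 0.35 and 0.44, Men1 between 0.13 and 0.20 and Cxxc1 between -0.37 and -0.29.

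**Figure D5:**
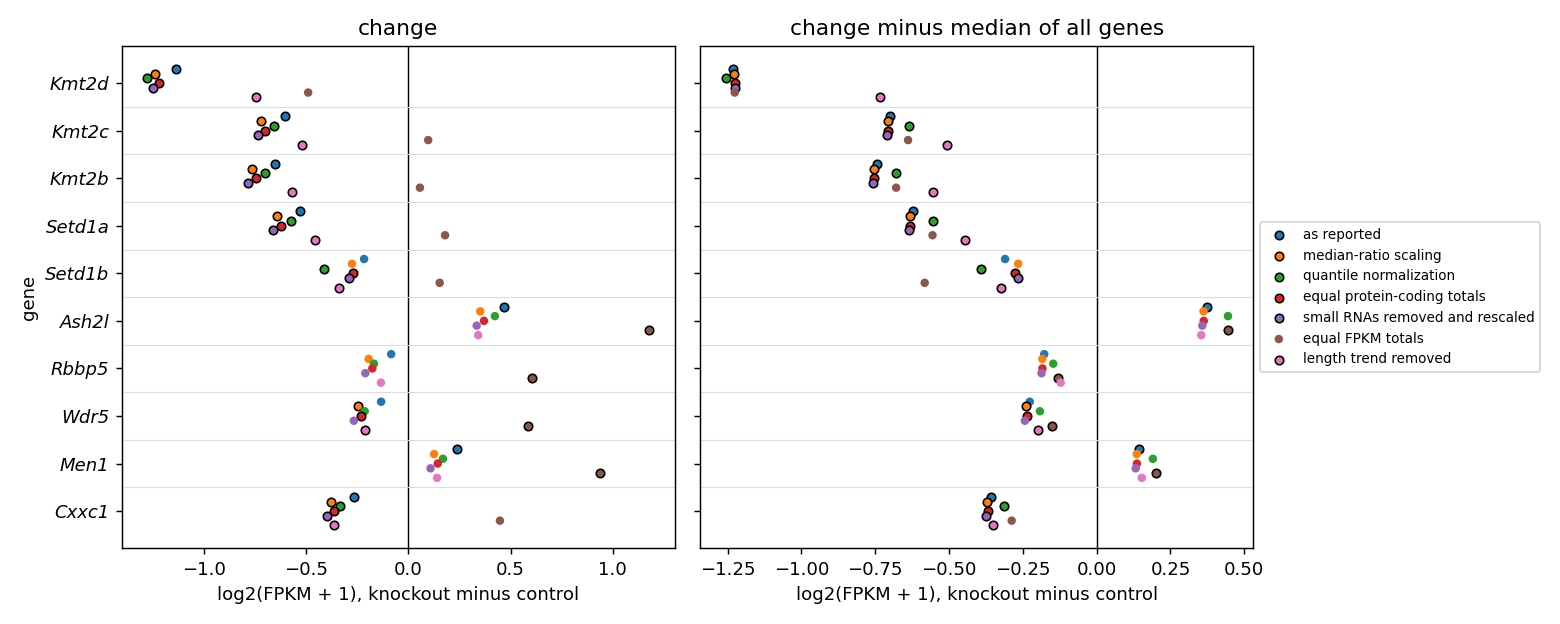
Log2 change, knockout minus control, of each gene under each scaling (colours; dark outline where called), as such on the left and relative to the median of all genes on the right. On the left equal FPKM totals carry all genes but Kmt2d to the right of 0, and on the right Ash2l stays between 0.35 and 0.44 while Kmt2d, nearest to 0 at -0.73 with the length trend removed, stays negative. On the right, a scaling of whole libraries largely cancels.

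Among 14 other genes listed as subunits or partners of these complexes, called subunits here, 2 fell, 1 rose and 11 were not called. Their median log2 change was -0.01, against 12.1% lower and 25.3% higher among all genes tested. Pagr1a, a subunit of the KMT2C and KMT2D complexes, fell from 15.2 ± 1.25 to 11.5 ± 1.02 FPKM (adjusted p = 0.0111), and Hcfc1, a subunit of SET1 and MLL complexes, from 69.5 ± 4.91 to 58.3 ± 4.18 (adjusted p = 0.0402). Psip1, whose product tethers the menin complexes to chromatin, rose from 92.3 ± 5.41 to 115 ± 1.92 FPKM (adjusted p = 0.00795). Dpy30, the remaining shared core subunit, was at 63.4 ± 4.15 and 77.6 ± 17.1 FPKM (adjusted p = 0.164). Kmt2a, the menin-bound enzyme related to Kmt2b, was at 30.1, 32.9, 23.5 and 20.9 FPKM in the controls and at 27.1, 9.32, 17.8 and 20.8 in the knockouts, with overlap and no call (log2 change -0.56, 95% interval -1.19 to 0.07, adjusted p = 0.143). Dpy30 and Kmt2a were named after their values were seen.

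A further list held 13 other genes taken as enzymes that add or remove methyl groups at this lysine, some of which also act on other residues. Of the 12 tested, 5 fell, 1 rose and 6 were not called, with a median of -0.25, beside the same 12.1% lower and 25.3% higher over all genes. Besides Kdm1a (adjusted p = 6.88e-05), which the genotype targets, the demethylases Kdm2b (49.7 ± 6.25 to 35.1 ± 1.08 FPKM, adjusted p = 0.00425), Kdm5b (91.2 ± 6.59 to 69.3 ± 8.29, adjusted p = 0.0137) and Kdm1b, the paralogue of Kdm1a (32.8 ± 2.73 to 26.2 ± 1.93, adjusted p = 0.0205), fell. So did the methyltransferase Smyd3, from 24.5 ± 2.71 to 19.0 ± 1.70 FPKM (adjusted p = 0.0231). Prdm9, the methyltransferase that marks meiotic recombination sites, rose from 2.38 ± 0.703 to 5.05 ± 1.39 FPKM (adjusted p = 0.0119), 2.12-fold, although knockout replicate 2, at 3.11, lay within the control range. Of 14 readers of methylated lysine 4, Pygo2 fell (47.6 ± 0.537 to 36.8 ± 2.45 FPKM, adjusted p = 0.00334), none rose and 13 were not called, with a median of -0.18, beside those same shares of all genes. The median of all genes was 0.09, and with equal FPKM totals the counts turned to 0 lower and 9 higher subunits, 1 lower and 4 higher enzymes, and 0 lower and 6 higher readers.

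Markers of other cells were low beside the germ cell markers, and some moved with the groups. The 4 endothelial markers Pecam1, Cdh5, Kdr and Tek summed to 3.98 to 5.62 FPKM among controls and 11.2 to 12.1 among knockouts, through Pecam1 (1.39 to 4.55) and Tek (1.05 to 4.13). Cdh5 (1.86 to 2.08) and Kdr (0.811 to 0.833) moved little. In controls 1 to 4 the 7 Sertoli markers summed to 34.4, 12.1, 12.8 and 16.3 FPKM. In knockouts 1 to 4 they summed to 31.5, 14.7, 41.5 and 36.0 FPKM, and the groups overlapped. The 4 peritubular markers summed to 3.68 to 6.47 FPKM among controls and 4.18 to 6.35 among knockouts. Of the erythroid markers 2 of 3 had values, which summed to 0.282 to 0.760 and 1.60 to 2.50 FPKM. That difference came through Alas2 (mean 0.289 in controls, 1.65 in knockouts), while Hbb-b1 was at 0.268 and 0.234. Single markers of Leydig cells (Star, 1.24 to 2.16 and 1.23 to 1.83 FPKM) and of macrophages (Cd68, 1.40 to 2.36 and 1.14 to 2.28 FPKM) had values. Among the germ cell markers Sall4 (76.4 to 46.4 FPKM) and Zbtb16 (61.2 to 22.3 FPKM) fell and Dppa3 (0.980 to 2.19 FPKM) rose. Pou5f1 (60.5 to 47.4 FPKM), Gfra1 (34.6 to 28.7), Kit (45.9 to 26.7), Ddx4 (198 to 187) and Dazl (400 to 448) were not called. The part of all these markers in the changes of the 10 genes was not tested.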

How the data were processed

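RNA of 4 Control and 4 KDM1A KO samples was measured from stranded mRNA libraries, per the labels' protocols. The authors deposited FPKM for 45550 transcript entries; TopHat, Bowtie, Cufflinks and Cuffdiff with mm10 are named in the submitters' processing notes, while versions, annotation and strand settings were not given in the sources used here. As FPKM are estimated values, no count model was run. Entries were summed by gene identifier, filtered at a mean of 1 FPKM over the 8 libraries and tested on log2(FPKM + 1) with limma 3.58.1 in R 4.3.3 (eBayes with trend, group only, two-sided, Benjamini-Hochberg over all genes tested, called under 0.05). Entries, and sums of protein-coding entries, were fitted in the same way. The log2 change understates the change of low genes, and folds are ratios of mean FPKM. Types, lengths and positions came from GENCODE M21 and promoters from RefSeq GRCm38.p6.

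Named were all 10 members, the most abundant and the called entries of each, and the called genes of 3 further lists; entries of Kmt2c, Kmt2b, Men1 and Setd1b outside that rule, and the 3 printed promoters, were chosen after their values were seen. The members and lists were chosen with earlier results of these data known. The fit was tested on simulated data with independent noise in each value. Those data held no trend with length and no library that stood apart. The simulation therefore cannot show how the fit handles either. Depth was inferred from the steps of low values, of which 61.5% to 66.4% came within 0.1 fragment of whole (20% by chance), and it put between 106 and 306 fragments behind Setd1b and at least 2381 behind each other member. The labels do not say that libraries came from separate animals, so the p-values reflect the spread of these samples alone, and that spread may be technical. Alternatives covered the pseudocount, filters, scaling, limma settings, the replicate block and each library left out; the length trend and equal protein-coding totals were added after seeing the data.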

Additional observations from a re-analysis of the deposited data

Results flagged for a closer look

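In 3 of 74 groups of 4 values examined, a library stood apart from the other 3 (its gap to the nearest, over the group's whole range, was 0.830, 0.838 and 0.836), and chance gives about 1 in 20. Kmt2b-205, a retained-intron entry, was highest in control replicate 2 at 6.01 FPKM. Wdr5-201 was lowest in control replicate 4 at 102.2 FPKM. Kmt2c-202 was lowest in knockout replicate 2 at 2.03 FPKM, in the library with the lowest value of longer minus shorter genes.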

How the results depend on the processing

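Kmt2d, Kmt2c, Kmt2b and Setd1a kept direction and call under each setting run on gene sums except equal FPKM totals. That scaling turned the sign of the gene sums of Kmt2c (0.10), Kmt2b (0.056), Setd1a (0.18), Setd1b (0.15), Rbbp5 (0.60), Wdr5 (0.58) and Cxxc1 (0.45), of the most abundant entries of Kmt2c (0.55), Kmt2b (0.29), Setd1a (0.24), Rbbp5 (0.60), Wdr5 (0.63) and Cxxc1 (0.45), and of the coding sums of Kmt2c (0.10), Kmt2b (0.019), Setd1a (0.18), Rbbp5 (0.60), Wdr5 (0.59) and Cxxc1 (0.45). The median of all genes is then 0.74: 151 fell and 9549 rose, with 0 and 4 member genes, 0 and 5 member entries, 0 and 4 coding sums, 0 and 9 other subunits, 1 and 4 other enzymes, and 0 and 6 readers. The cause of the other shifts was not tested. Median-ratio scaling gave 0 rising member genes, 0 rising coding sums, 1 rising entry and 5 falling readers; quantile normalization gave 2648 falling genes, 0 rising members, 4 falling subunits and 5 falling readers. Small RNAs removed gave 2241 rising genes, 0 rising members, 1 falling and 0 rising subunits, 0 rising enzymes and 2 falling readers. Equal protein-coding totals gave 0 rising member genes, 0 rising coding sums, 1 rising entry, 1 falling and 0 rising subunits and 3 falling readers. The length trend removed gave 2828 falling genes, 0 rising members, 8 falling and 0 rising entries, 2 rising subunits and 5 falling readers. A mean of at least 5 FPKM gave 2164 rising genes, 0 rising enzymes and 2 falling readers; no filter gave 2 rising enzymes. No intensity trend gave 1 falling subunit and 2 falling readers, and a pseudocount of 0.1 gave 2 falling readers.

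With the replicate number as a block, 0 member genes rose, and Ash2l (adjusted p = 0.0568), Men1 (0.0626) and Cxxc1 (0.0674) lost their calls. In that paired fit 1 member entry fell and 0 rose, 1 subunit fell and 3 enzymes fell. The deviations of same-numbered samples had correlations of 0.22, -0.12, -0.13 and -0.09 for numbers 1 to 4. Of the knockouts only replicate 1 correlated best with its own number, and replicates 2, 3 and 4 with controls 4, 2 and 1. The labels do not say whether same-numbered samples were paired, and these correlations cannot settle it.

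Without single libraries, member genes that fell numbered 4 to 6 and that rose 0 to 2, entries 0 to 6 and 0 to 2, coding sums 4 to 5 and 1 to 2, all genes 1170 to 2025 and 2657 to 3855, subunits 1 to 2 and 1 to 2, enzymes 3 to 6 and 1, and readers 1 to 2 and 0; the ratio of enzymes to core, knockout over control, was 0.580 to 0.625. Depth limits Setd1b most.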
